A study of Mus musculus with 8 samples.

Results

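The genes described here are the ligands and receptors of axon guidance in cultured mouse colon fibroblasts: the Slits and Robos, the semaphorins with their plexin and neuropilin receptors, the netrins with Dcc, Neo1 and the Unc5 receptors, and the ephrins with the Eph receptors. Members were chosen by gene symbol alone, as the protein-coding genes of GENCODE M21 (GRCm38, the assembly of mm10) that carry a name of these families, which gave 70 of the 55573 genes listed. The family was picked out after results of the same comparison were known, among them the rise of Slit1. Its counts and values are therefore a description, and Slit1 is given without a p-value.

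Both groups were 2D cultures of colon fibroblasts of the C57BL6/J strain on plates in Advanced DMEM F12 with FBS, and both received medium conditioned by APTKA, a name the labels leave unexplained. The irradiated group (4 libraries) was given 3 fractions of 2 Gy, the non-irradiated group (4 libraries) no dose, and all cells were taken 72 h after the first dose. PolyA RNA was counted per gene, with 30203137 to 36497990 counts in irradiated and 28731227 to 37157216 in non-irradiated libraries. Whether each library stands for its own animal or culture is not stated in the labels. The p-values rest on the variation among these 8 samples, and part or all of it may be technical. Every culture had the conditioned medium, so its own effect cannot be read here. The irradiated libraries fell into 2 close pairs over all genes. The chi-square per degree of freedom between their counts was 4.93 for I and II and 4.65 for III and IV. Across these pairs it was 14.2 to 24.4. Between non-irradiated libraries it was 4.78 for II and IV and 7.73 for I and III, against 8.95 to 12.4 for the rest. Mitochondrial rRNA took 15129 CPM in irradiated I and 15263 CPM in irradiated II, while the remaining 6 had 4179 to 5934 CPM, and its part in the results was not tested. The SDs and p-values count the 4 libraries of each group as equally separate. With irradiated I and II both left out, 2 members were called higher in place of 6, Robo3 and the already known Slit1. Every count of members called higher includes Slit1, and its calls are no test of it. With non-irradiated I and III both left out, 3 members were called higher.

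Guidance cues steer growing axons by attraction or repulsion, and the same ligands and receptors act outside the nervous system on cell migration, adhesion and tissue boundaries. Slits are secreted and repel through Robo receptors. Semaphorins act through plexins, and most of the secreted class 3 members need a neuropilin as co-receptor. Netrins bind Dcc, neogenin (Neo1) and the Unc5 receptors. Ephrins are bound to the cell surface and activate Eph receptor tyrosine kinases on a neighbouring cell, the ephrin-A ligands mostly EphA and the ephrin-B ligands mostly EphB receptors.

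Most of these genes differed little between irradiated and non-irradiated cells. Of the 70, 57 had enough counts to be tested, and 47 of these (82.5%) differed by less than 1.2-fold, as did 85.3% of all 15259 genes tested. At an adjusted p under 0.05 in edgeR's quasi-likelihood test, 6 members were higher in irradiated cells (Slit1, Robo3, Sema3d, Sema7a, Efna3 and Efnb3), 1 was lower (Sema5a) and 50 were not called. Among all genes tested, 2.59% were called higher and 4.15% lower. The 6 make up 10.5% of the members tested, a share that includes Slit1, whose rise was known beforehand. The difference from the share of all genes was not tested. The median log2 fold change was -0.02 over the tested members and 0.00 over all genes tested. Ligands made up 5 of the 6 higher members and the 1 lower member, out of 32 ligands and 25 receptors tested. This split was not tested. With irradiated I and II both left out, Robo3, a receptor, was the sole member called higher besides Slit1, a ligand. Levels are CPM (counts scaled to library size with TMM factors), and log2 fold changes are irradiated over non-irradiated.

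**Figure D1:**
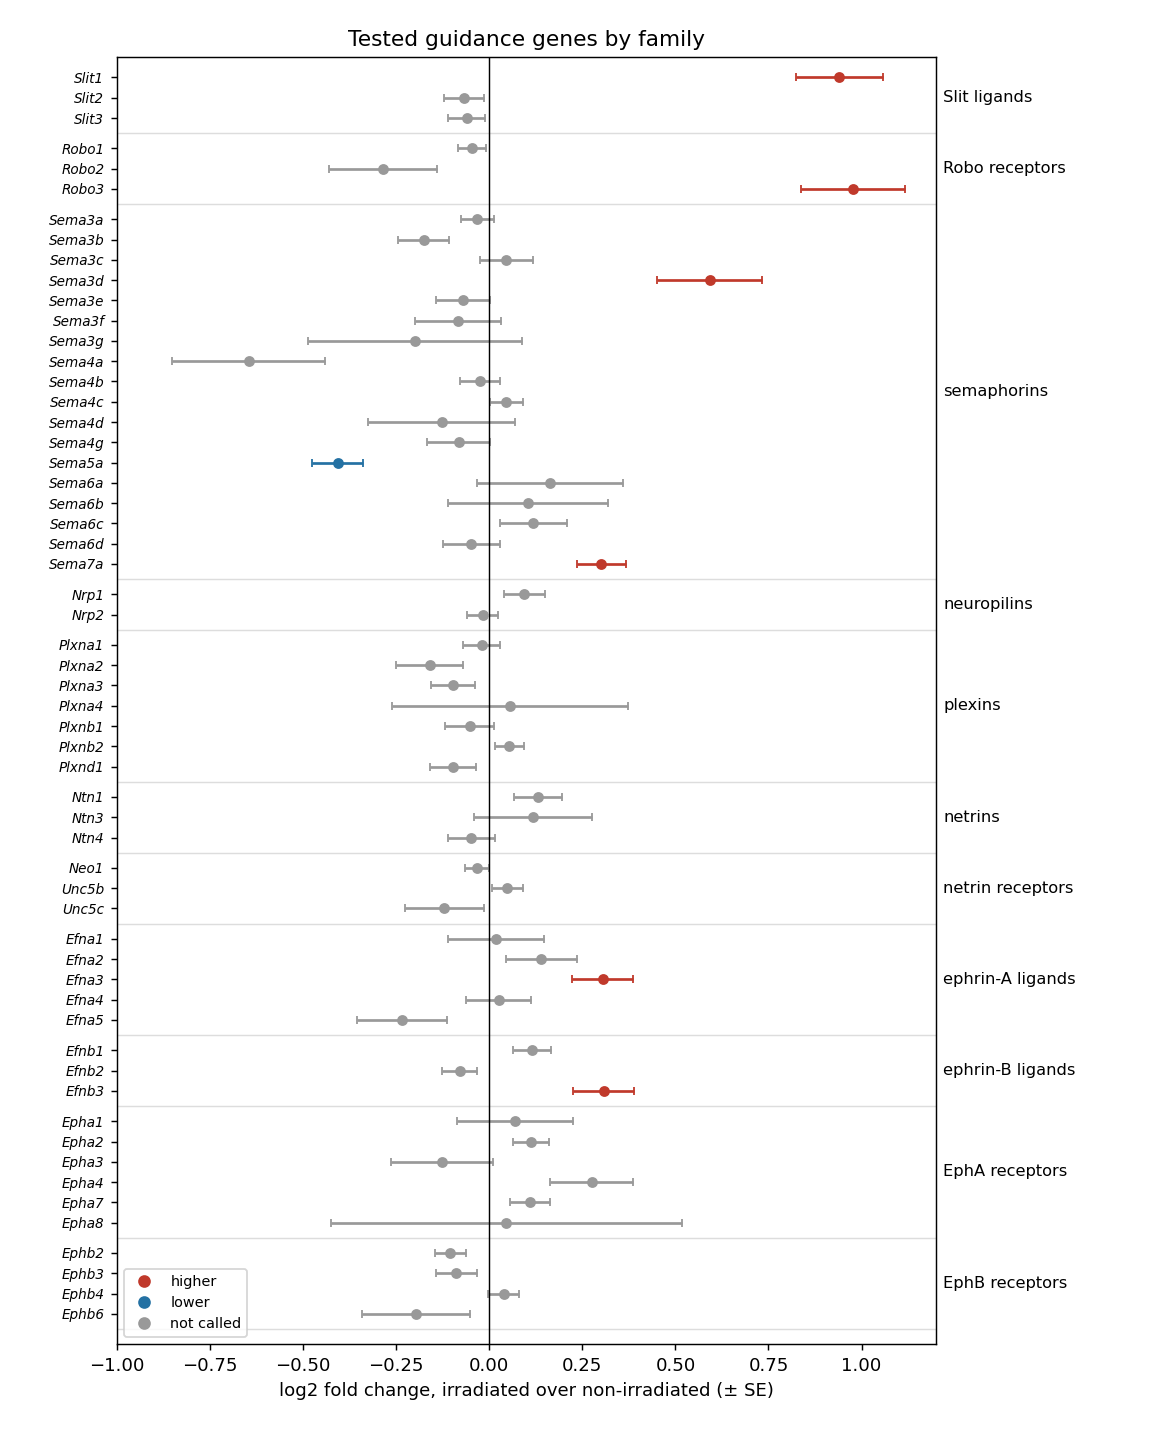
Log2 fold change (x axis, irradiated over non-irradiated, bars ± SE) of the 57 tested guidance genes, grouped by family from top to bottom. Slit1 and Robo3 lie near 1, Sema3d at 0.59, Sema7a, Efna3 and Efnb3 at about 0.3 and Sema5a at -0.41, while 50 grey points, most of them close to 0, did not pass the test.

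The start regions of 3 called genes are printed here because they belong to the receptor that rose (Robo3), the most abundant member that rose (Sema7a) and the sole fall (Sema5a). Each window runs from 250 bases before to 50 bases after the gene's start in RefSeq (GRCm38.p6), written 5′ to 3′ on the gene's own strand. They lie at chr9:37433126-37433425, minus strand (Robo3), chr9:57939862-57940161, plus strand (Sema7a) and chr15:32244563-32244862, plus strand (Sema5a). Capitals mark the GC box (letters GGGCGG, searched on both strands, overlapping matches included).
Robo3: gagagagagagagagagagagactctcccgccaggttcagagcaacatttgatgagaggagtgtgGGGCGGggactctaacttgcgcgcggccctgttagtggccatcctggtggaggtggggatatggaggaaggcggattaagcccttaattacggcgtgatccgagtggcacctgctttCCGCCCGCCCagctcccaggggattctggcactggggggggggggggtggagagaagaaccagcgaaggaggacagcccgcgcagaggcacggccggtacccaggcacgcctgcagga
Sema7a: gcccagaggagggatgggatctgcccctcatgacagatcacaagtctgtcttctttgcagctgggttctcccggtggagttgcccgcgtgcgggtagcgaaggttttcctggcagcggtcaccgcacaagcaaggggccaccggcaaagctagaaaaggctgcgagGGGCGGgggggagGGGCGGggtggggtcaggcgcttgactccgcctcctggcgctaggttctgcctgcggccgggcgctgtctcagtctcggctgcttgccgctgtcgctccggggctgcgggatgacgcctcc
Sema5a: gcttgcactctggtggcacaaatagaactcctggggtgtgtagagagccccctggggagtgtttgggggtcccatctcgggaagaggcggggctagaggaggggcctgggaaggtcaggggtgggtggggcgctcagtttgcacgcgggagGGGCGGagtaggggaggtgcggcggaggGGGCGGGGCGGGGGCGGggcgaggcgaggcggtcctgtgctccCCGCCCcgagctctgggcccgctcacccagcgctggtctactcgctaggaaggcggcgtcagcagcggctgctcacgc

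Robo3 held 3 matches to the GC box, Sema7a 2 and Sema5a 5, and the windows had 17, 23 and 23 CpG pairs in that order, against a median of 7 over 32851 windows of all genes. A GC box was found in any window of 45 of the 60 members that have a window. Of all single windows, 35.7% held one, a share per window and not per gene, so the 2 figures are not directly comparable. None of the 3 windows held, on either strand, the TATA box (letters TATAAA, in 13.6% of all windows), the CCAAT box (letters CCAAT, in 37.4%), the AP-1 site (letters TGACTCA, in 5.2%), the E-box (letters CACGTG, in 7.2%) or a p53 half-site (in 8.4%). Among the called members not printed, the Sema3d window had 8 CpG pairs, 0 GC boxes and 1 CCAAT box. Efna3 has 2 windows, with 22 and 34 CpG pairs and 3 GC boxes each, and the one with 22 holds 1 CCAAT box. Slit1 and Efnb3 had no window. A match describes the letters and no binding was measured.

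Of the Slit ligands, Slit1 was higher in irradiated cells and the other 2 were not called. Slit1 (ENSMUSG00000025020, chromosome 19, 41600257 to 41743665, minus strand) had 5.42, 4.24, 5.12 and 5.44 CPM in irradiated libraries I to IV, against 2.76, 2.86, 2.25 and 2.71 CPM in non-irradiated libraries I to IV. Every irradiated library lay above every non-irradiated one, with a 1.92-fold difference (log2 fold change 0.94, SE 0.12). Slit3, the most abundant Slit, averaged 80.4 ± 3.61 CPM in irradiated and 83.9 ± 5.09 CPM in non-irradiated libraries (log2 fold change -0.06, SE 0.05, adjusted p = 0.530; means with SD, n = 4 each). Slit2 averaged 23.0 ± 1.36 CPM in irradiated and 24.1 ± 0.682 CPM in non-irradiated libraries (log2 fold change -0.07, SE 0.05, adjusted p = 0.510). Per kb of exon, Slit3 held 89.6% of the summed level of the 3 Slits, Slit2 6.13% and Slit1 4.30%. Per kb of each gene's longest transcript, the shares were 83.8% for Slit3, 12.6% for Slit2 and 3.62% for Slit1. In CPM, the 3 Slits together summed to 108.5 ± 4.43 in irradiated and 110.7 ± 5.84 in non-irradiated libraries.

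Robo3 rose to about the same degree as Slit1 and, unlike it, is a receptor. In mouse, Robo3 is best known for letting commissural axons cross the midline, and the mammalian protein binds Slits poorly. Robo3 (ENSMUSG00000032128, chromosome 9, 37415669 to 37433246, minus strand) had 3.15, 2.88, 3.06 and 3.89 CPM in irradiated libraries I to IV, against 1.67, 1.94, 1.46 and 1.51 CPM in non-irradiated libraries I to IV. The groups did not overlap, and the difference was 1.97-fold (log2 fold change 0.98, SE 0.14, adjusted p = 0.000706). All 8 fits that left out 1 library kept the call, with adjusted p from 0.000702 to 0.00379, and it was kept without both irradiated I and II (0.00483). Robo1, the main Slit receptor here with 92.2% of the summed level of the 4 Robos per kb, had 94.1 to 97.3 CPM in irradiated and 95.5 to 101 CPM in non-irradiated libraries (log2 fold change -0.05, SE 0.04, adjusted p = 0.512). Robo2, the other classical Slit receptor, was low at 1.29 to 1.71 CPM in irradiated and 1.65 to 1.95 CPM in non-irradiated libraries (log2 fold change -0.29, SE 0.15, adjusted p = 0.281).

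Robo4, known from endothelial cells, was too low for the test. It had 51 counts over the 4 irradiated and 18 over the 4 non-irradiated libraries, which is 0.387, 0.242, 0.330 and 0.560 CPM in irradiated libraries I to IV, against 0.140, 0.191, 0.162 and 0.0630 CPM in non-irradiated libraries I to IV. The groups did not overlap. When genes were kept without a low-count filter, its log2 fold change was 1.41 (SE 0.43, adjusted p = 0.0258). That fit called 648 of all genes higher, against 395 in the reported fit, and its adjusted p cannot be set beside the others here. Of the 8 filtered fits that left out 1 library, Robo4 passed the filter in 5. It was called in 1 of these, with adjusted p from 0.0424 to 0.113 over the 5. Summed over 8 endothelial markers, the level was 11.1 to 13.3 CPM in irradiated and 11.6 to 13.2 CPM in non-irradiated libraries. Of the 8, 6 averaged under 1 CPM and Tie1 had no count. Single markers went both ways: Cdh5 (6 counts in all) had 0.0275 to 0.0659 CPM in irradiated and 0 CPM in non-irradiated libraries, and Vwf (52 counts in all) had 0.0330 to 0.212 CPM in irradiated and 0.221 to 0.286 CPM in non-irradiated libraries. The 4 markers that were tested (Pecam1, Kdr, Tek and Egfl7) had log2 fold changes from -0.25 (Pecam1) to 0.49 (Tek), and none was called by edgeR.

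**Figure D2:**
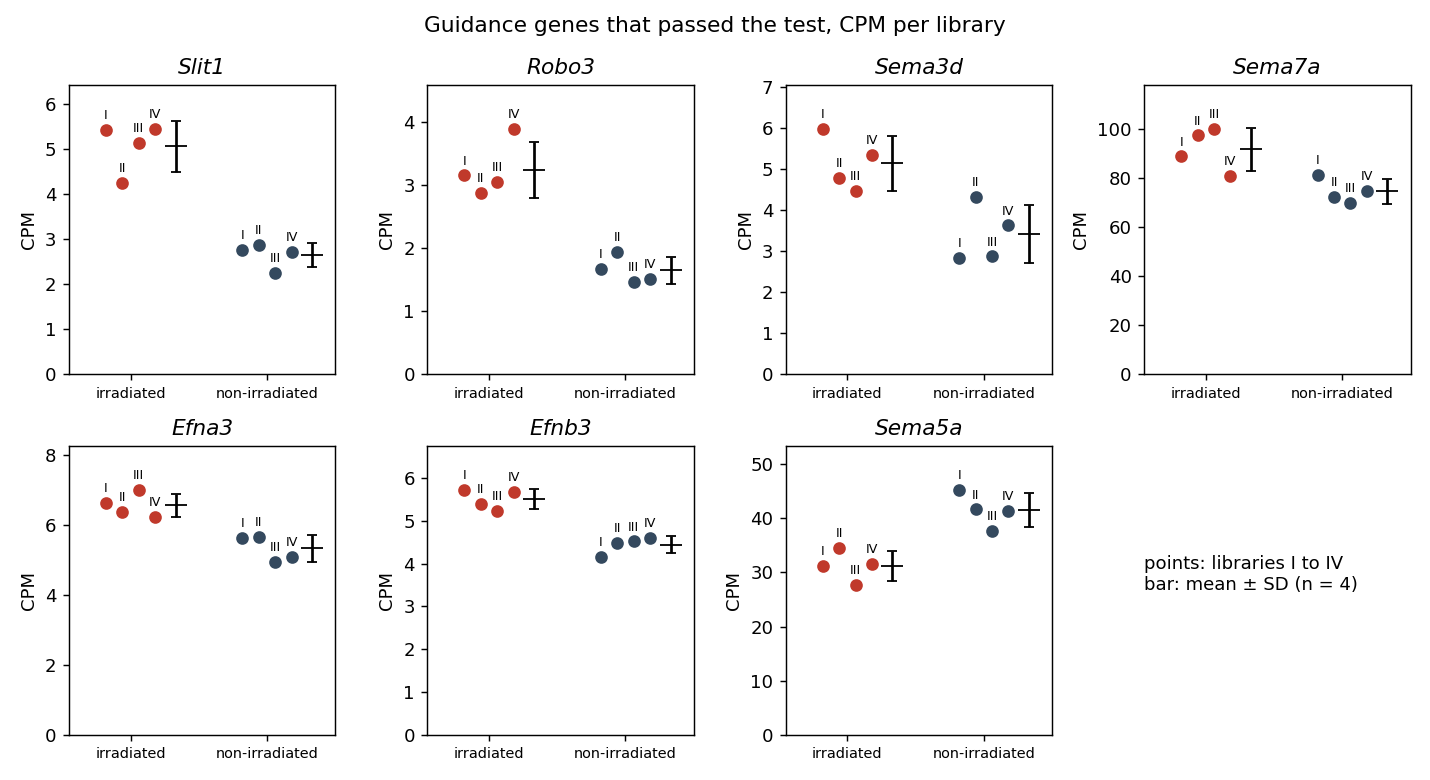
CPM (y axis, from 0) of the 7 called guidance genes in each library, irradiated left and non-irradiated right, with the mean ± SD of 4 libraries as a black bar. The groups are apart in 6 panels, and in Sema7a irradiated IV at 80.7 CPM lies just under non-irradiated I at 81.3 CPM.

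Among the 20 semaphorins, 18 were tested, of which Sema3d and Sema7a were higher and Sema5a lower. Sema3d, a secreted class 3 member (ENSMUSG00000040254, chromosome 5, 12383385 to 12588948, plus strand), had 5.97, 4.78, 4.46 and 5.34 CPM in irradiated libraries I to IV, against 2.83, 4.32, 2.87 and 3.62 CPM in non-irradiated libraries I to IV. The groups were apart by a narrow gap between irradiated III and non-irradiated II, and irradiated cells had 1.51 times the level (log2 fold change 0.59, SE 0.14, adjusted p = 0.0229). The edgeR call was lost without irradiated I or IV or non-irradiated I or III (adjusted p 0.0593 to 0.0745), and the log2 fold change dropped to 0.37 without both non-irradiated I and III (0.144). With irradiated I and II both left out, Sema3d had a log2 fold change of 0.52 (adjusted p = 0.140). The other 6 class 3 members were not called, with log2 fold changes from -0.20 (Sema3g) to 0.05 (Sema3c).

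Sema3a, the classical collapsing factor for sensory axons, was the most abundant semaphorin. It averaged 581 ± 24.8 CPM in irradiated and 594 ± 31.3 CPM in non-irradiated libraries (log2 fold change -0.03, SE 0.04, adjusted p = 0.741; means with SD, n = 4 each). Both neuropilins were also well above most other members. Nrp2 averaged 388 ± 13.9 CPM in irradiated and 393 ± 20.2 CPM in non-irradiated libraries (log2 fold change -0.02, SE 0.04, adjusted p = 0.861), and Nrp1, the co-receptor that binds Sema3a, averaged 81.1 ± 3.27 CPM in irradiated and 76.0 ± 6.16 CPM in non-irradiated libraries (log2 fold change 0.09, SE 0.06, adjusted p = 0.360). For both, the groups overlapped.

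Sema7a, which is anchored in the membrane by a lipid and binds integrin beta 1 and plexin C1, was the most abundant member that rose. Sema7a (ENSMUSG00000038264, chromosome 9, 57940112 to 57962865, plus strand) had 88.7, 97.3, 99.9 and 80.7 CPM in irradiated libraries I to IV, against 81.3, 72.2, 69.6 and 74.7 CPM in non-irradiated libraries I to IV. Irradiated IV lay inside the non-irradiated range, and the other 3 irradiated libraries lay above it. Irradiated cells had 1.23 times the level of non-irradiated cells (log2 fold change 0.30, SE 0.07, adjusted p = 0.0143). This result passed in all 8 fits that left out 1 library (up to 0.046), and without both irradiated I and II its adjusted p was 0.0937. Of its receptors, Plxnc1 had 85 counts in total and stayed untested, and Itgb1 averaged 915 ± 14.8 CPM in irradiated and 939 ± 32.2 CPM in non-irradiated libraries (log2 fold change -0.04, SE 0.04, adjusted p = 0.595; means with SD, n = 4 each).

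Sema5a, a transmembrane semaphorin with thrombospondin repeats, was the sole member called lower. Sema5a (ENSMUSG00000022231, chromosome 15, 32244810 to 32696341, plus strand) had 31.1, 34.4, 27.8 and 31.6 CPM in irradiated libraries I to IV, against 45.2, 41.6, 37.6 and 41.3 CPM in non-irradiated libraries I to IV. No irradiated library reached the lowest non-irradiated one, and the level in irradiated cells was 0.754 times that in non-irradiated cells (log2 fold change -0.41, SE 0.07, adjusted p = 0.00220). All 18 alternative fits kept the call, with adjusted p up to 0.00978. Plxnb3, a described receptor of Sema5a, had 10 counts in all libraries together. Sema5b, its closest relative, had 6.

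Sema4a, a class 4 member studied mostly in immune cells, averaged 0.660 ± 0.0469 CPM in irradiated and 1.05 ± 0.231 CPM in non-irradiated libraries (SD, n = 4 each) and was not called (log2 fold change -0.65, SE 0.21, adjusted p = 0.0816), although the groups did not overlap. The more abundant class 4 genes Sema4b and Sema4c averaged 116 and 42.8 CPM in irradiated cells, with log2 fold changes of -0.02 (Sema4b) and 0.05 (Sema4c). The 4 class 6 genes had log2 fold changes from -0.05 (Sema6d) to 0.16 (Sema6a).

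No plexin was called among the 7 tested by edgeR, DESeq2 or limma-voom, and 0 of the 7 had an unadjusted p under 0.05. Plxnb2, a receptor of class 4 semaphorins, had the highest level per length of all 70 members at 88.0 and 84.8 CPM per kb in irradiated and non-irradiated cells, and its log2 fold change was 0.05 (SE 0.04, adjusted p = 0.466). Plxna1, a partner of the neuropilins, followed at 51.6 and 52.3 CPM per kb in irradiated and non-irradiated cells (log2 fold change -0.02, SE 0.05, adjusted p = 0.868). This order depends on the length used: per kb of longest transcript, over all 8 libraries, Plxnb2 had 102.7 CPM, Sema3a 99.0, Nrp2 58.1 and Plxna1 52.1. Plxnd1, a receptor of Sema3e that also takes part in Sema3d signalling, averaged 71.5 ± 2.81 CPM in irradiated and 76.5 ± 7.79 CPM in non-irradiated libraries (log2 fold change -0.10, SE 0.06, adjusted p = 0.411; means with SD, n = 4 each). The SE of the members that were not called had a median of 0.0697 on the log2 scale.

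**Figure D3:**
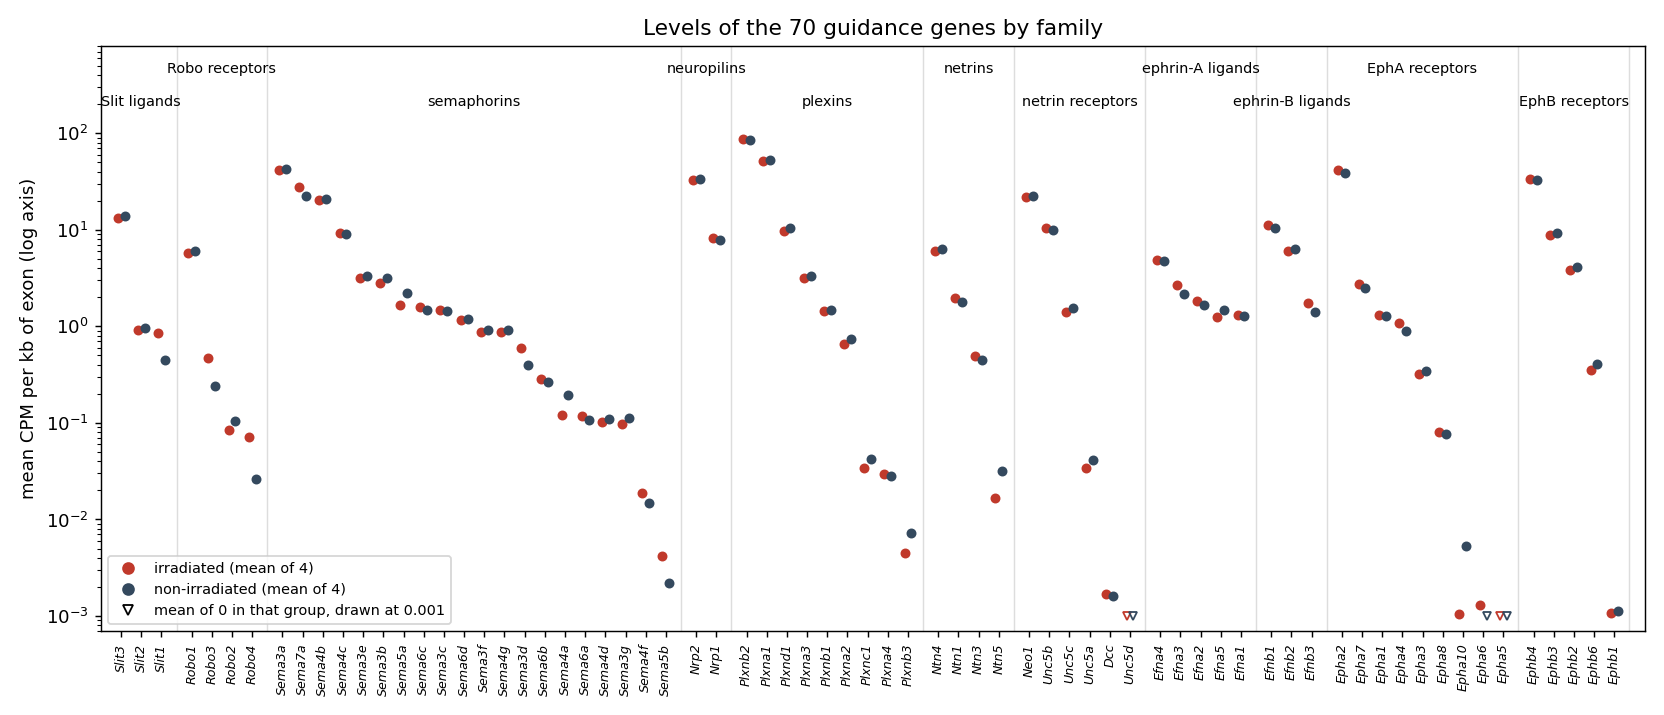
Mean CPM per kb of exon (log axis) of all 70 guidance genes, ordered within each family from high to low, irradiated left and non-irradiated right of each pair. Levels run from 88.0 (irradiated) and 84.8 (non-irradiated) CPM per kb for Plxnb2 to genes with a mean of 0, and the pairs lie close together except among low genes and for members such as Slit1 and Robo3.

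Of 3 netrins and 3 netrin receptors tested, 0 were called by edgeR, DESeq2 or limma-voom, and 0 had an unadjusted p under 0.05. Ntn4, a netrin of basement membranes, was the most abundant netrin at 20.4 to 24.3 CPM in irradiated and 22.5 to 24.9 CPM in non-irradiated libraries (log2 fold change -0.05, SE 0.06, adjusted p = 0.722). Ntn1, the founding member, ranged over 11.9 to 13.0 CPM in irradiated and 10.4 to 11.5 CPM in non-irradiated libraries. All irradiated libraries lay above the non-irradiated ones for Ntn1, but by little (log2 fold change 0.13, SE 0.06, adjusted p = 0.261). Neo1, a receptor of netrins and of the repulsive guidance molecules, averaged 191 ± 2.37 CPM in irradiated and 195 ± 4.46 CPM in non-irradiated libraries (log2 fold change -0.03, SE 0.03, adjusted p = 0.620; means with SD, n = 4 each). Unc5b, which mediates repulsion by netrin, averaged 64.5 ± 2.23 CPM in irradiated and 62.3 ± 2.22 CPM in non-irradiated libraries (log2 fold change 0.05, SE 0.04, adjusted p = 0.545). Dcc, the receptor for attraction, had 6 counts in all 8 libraries and Unc5d none.

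Of the ephrins, Efna3 and Efnb3 were called higher by small margins. Efna3, a GPI-anchored ligand of EphA receptors (ENSMUSG00000028039, chromosome 3, 89313899 to 89322965, minus strand), had 6.61, 6.36, 6.99 and 6.23 CPM in irradiated libraries I to IV, against 5.62, 5.66, 4.93 and 5.07 CPM in non-irradiated libraries I to IV. The groups did not overlap (log2 fold change 0.30, SE 0.08, adjusted p = 0.0441). Its call was kept in 1 of the 8 fits that left out 1 library, the one without non-irradiated II, with adjusted p from 0.041 to 0.13 over the 8. With irradiated I and II both left out, the adjusted p of Efna3 was 0.158. An antisense gene, Gm15998, covers 14.1% of its exons and had 60 counts in all libraries against 1574 for Efna3. Without a stated strand setting, reads of both cannot be told apart there.

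Efnb3, a transmembrane ligand of EphB receptors (ENSMUSG00000003934, chromosome 11, 69554092 to 69560205, minus strand), had 5.72, 5.39, 5.23 and 5.67 CPM in irradiated libraries I to IV, against 4.15, 4.48, 4.52 and 4.60 CPM in non-irradiated libraries I to IV. These groups were apart as well (log2 fold change 0.31, SE 0.08, adjusted p = 0.0400). Its call was lost whichever library was left out, with adjusted p from 0.0587 to 0.111, with DESeq2 (0.0621), and with irradiated I and II both left out (0.204). The other 6 ephrins were not called. Efnb1 and Efnb2, the abundant ephrin-B genes, averaged 39.1 ± 2.71 CPM in irradiated and 36.1 ± 0.921 CPM in non-irradiated libraries for Efnb1 (log2 fold change 0.11, SE 0.05, adjusted p = 0.220; means with SD, n = 4 each) and 40.8 ± 1.91 CPM in irradiated and 43.1 ± 1.85 CPM in non-irradiated libraries for Efnb2 (log2 fold change -0.08, SE 0.05, adjusted p = 0.359). Efna4 had the highest level per length among the ephrin-A genes, at 4.81 and 4.72 CPM per kb in irradiated and non-irradiated cells (log2 fold change 0.03, SE 0.09, adjusted p = 0.909).

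None of the 10 tested Eph receptors was called by edgeR, DESeq2 or limma-voom, and 3 had an unadjusted p under 0.05 in edgeR (2 higher, 1 lower). Epha2 held 88.3% of the summed EphA level per kb and averaged 194 ± 13.9 CPM in irradiated and 179 ± 5.99 CPM in non-irradiated libraries (log2 fold change 0.11, SE 0.05, adjusted p = 0.209; means with SD, n = 4 each). Without irradiated II, its lowest irradiated library, Epha2 was called at an adjusted p of 0.0387 with a log2 fold change of 0.16. Epha7 came next per kb among the EphA genes at 26.2 to 27.5 CPM in irradiated and 22.7 to 26.5 CPM in non-irradiated libraries (log2 fold change 0.11, SE 0.05, adjusted p = 0.269). Ephb4, the receptor of ephrin-B2 in vessels, held 71.1% of the EphB level per kb and averaged 156 ± 6.11 CPM in irradiated and 151 ± 6.17 CPM in non-irradiated libraries (log2 fold change 0.04, SE 0.04, adjusted p = 0.643). Ephb3 averaged 58.2 ± 2.30 CPM in irradiated and 61.9 ± 5.04 CPM in non-irradiated libraries (log2 fold change -0.09, SE 0.06, adjusted p = 0.392). Ephb2 lay lower in all irradiated libraries, at 47.5 to 49.8 CPM in irradiated and 50.5 to 55.7 CPM in non-irradiated libraries, and was not called (log2 fold change -0.10, SE 0.04, adjusted p = 0.160).

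Of the members not called, some low or moderate genes had wider differences and were picked out after their values were seen. Epha4, an Eph receptor that binds ephrins of both classes, had 7.39 to 9.32 CPM in irradiated and 5.71 to 8.07 CPM in non-irradiated libraries (log2 fold change 0.28, SE 0.11, adjusted p = 0.169). Efna5, an ephrin that repels retinal axons, had 4.57 to 5.51 CPM in irradiated and 4.98 to 7.12 CPM in non-irradiated libraries (log2 fold change -0.24, SE 0.12, adjusted p = 0.288). Ephb6, which lacks kinase activity, had 1.21 to 1.45 CPM in irradiated and 1.34 to 1.64 CPM in non-irradiated libraries (log2 fold change -0.20, SE 0.14, adjusted p = 0.482). Sema3b, a secreted class 3 member, had 12.5 to 14.5 CPM in irradiated and 13.9 to 15.8 CPM in non-irradiated libraries (log2 fold change -0.18, SE 0.07, adjusted p = 0.150). Plxna2, a plexin of the class that pairs with neuropilins, had 10.7 to 12.4 CPM in irradiated and 10.9 to 14.5 CPM in non-irradiated libraries (log2 fold change -0.16, SE 0.09, adjusted p = 0.331). In each of these 5 the groups overlapped.

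Groups that did not overlap occurred for 6 tested members with all irradiated libraries higher (Slit1, Robo3, Sema3d, Efna3, Efnb3 and Ntn1) and for 3 with all lower (Sema5a, Sema4a and Ephb2). Over all genes tested, these patterns made up 6.13% and 8.07%. By level, 5 of the 7 called genes were among the 25 tested members under 10 CPM, and 2, Sema7a and Sema5a, were among the 32 at 10 CPM or more. Among all genes tested, 4.0% of those under 10 CPM and 8.5% of those at 10 CPM or more were called. No test compared these shares. For members at 10 CPM or more, log2 fold changes ran from -0.41 to 0.30. Every called member had at least 1.46 CPM in each library, so none passed the low-count filter through 1 group only.

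The 13 members that were not tested were at or near 0. Epha5 and Unc5d had no count, which allows up to 3 counts per library or 0.0811 to 0.105 CPM. Epha6, Epha10, Ephb1, Dcc and Sema5b had 1 to 6 counts in all. Plxnb3, Ntn5, Sema4f, Unc5a, Robo4 and Plxnc1 had 10 to 85.

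Genes that act downstream of these receptors were called lower or not at all. Of 42 intracellular effectors, 38 were tested, 6 were lower and 0 higher (0 higher also at an unadjusted p under 0.05 and by DESeq2 or limma-voom), with a median log2 fold change of -0.06. The 6 make up 15.8% of those tested, against 4.15% of all genes, a difference that was not tested. The 4.15% is not matched for level. Most effectors lay over 10 CPM, where 8.5% of all genes tested were called in either direction, against 4.0% under 10 CPM. The list was also chosen with earlier results of these data known. Over the alternative fits the count ran from 2 (without irradiated III, or with non-irradiated I and III both left out) to 8 (DESeq2), and it was 3 without irradiated I and 3 without irradiated IV. Dpysl3, a collapsin response mediator of the family that relays semaphorin signals, had 309, 300.5, 309 and 298 CPM in irradiated libraries I to IV, against 357, 356, 341 and 346 CPM in non-irradiated libraries I to IV (log2 fold change -0.20, SE 0.03, adjusted p = 0.00180). Ngef, the ephexin that links EphA4 to RhoA, had 1.80, 2.03, 2.29 and 2.17 CPM in irradiated libraries I to IV, against 3.63, 2.67, 3.98 and 2.93 CPM in non-irradiated libraries I to IV (log2 fold change -0.68, SE 0.15, adjusted p = 0.0128). In both genes every irradiated library lay below the non-irradiated ones, and both calls held in all 8 fits that left out 1 library. Pak1, a kinase activated by Rac and Cdc42, averaged 76.0 ± 1.13 CPM in irradiated and 85.6 ± 3.47 CPM in non-irradiated libraries (log2 fold change -0.17, SE 0.04, adjusted p = 0.0206; means with SD, n = 4 each), a call lost without irradiated I, II or III (up to 0.0696). Without both irradiated I and II, 2 effectors were lower, and the adjusted p was 0.0345 for Dpysl3, 0.136 for Ngef and 0.167 for Pak1. Enah, Evl and Mical2, which act on actin, were the other 3, each with a log2 fold change between -0.21 and -0.15 and a call lost without at least 5 of the single libraries. Of 18 related cues and co-receptors outside the families, such as Rgma, Flrt2 and Gpc1, 15 were tested, and 0 were called in either direction by edgeR (1 lower at an unadjusted p under 0.05). DESeq2 called 1 of them lower and limma-voom 0.

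The libraries as a whole set these values in context. The 70 members together took 0.379% to 0.388% of the counts in irradiated and 0.374% to 0.397% in non-irradiated libraries. Fibroblast markers were abundant, with 14800 to 16120 CPM summed over 12 markers in irradiated and 16247 to 19079 CPM in non-irradiated libraries. All 12 were tested, 2 were called lower and 0 higher, with a median log2 fold change of -0.12. Of all genes tested, 4.15% were called lower, and the difference in share was not tested. Col1a2 was called lower, a call kept in all 8 fits that left out 1 library. Vim was called lower by a small margin (adjusted p = 0.0462), a call kept in 1 of those 8 fits. Lum, Fap and S100a4 averaged 3.03 to 5.81 CPM in irradiated and 3.27 to 5.44 CPM in non-irradiated cells. Neuronal markers summed to 10.9 to 12.9 CPM in irradiated and 12.4 to 13.6 CPM in non-irradiated libraries. Of these 7 markers, 5 averaged under 1 CPM, so most of the sum came from the others. Glial markers summed to 3.55 to 4.62 CPM in irradiated and 4.26 to 4.86 CPM in non-irradiated libraries, and 6 of these 7 averaged under 1 CPM. The lowest levels included the glial Sox10 and the neuronal Elavl4, both under 0.1 CPM. Epithelial (1.10 to 1.61 and 0.975 to 2.29 CPM), leukocyte (4.60 to 5.96 and 3.97 to 5.44 CPM) and mesothelial markers (0.151 to 0.249 and 0.0954 to 0.252 CPM) were low in irradiated and non-irradiated libraries. Smooth muscle and pericyte markers summed to 567 to 692 CPM in irradiated and 701 to 759 CPM in non-irradiated libraries. Of these 7 markers, Cnn1, Acta2 and Actg2 lay over 10 CPM, and 3 averaged under 1 CPM. Among the 6 tested, Acta2 and Actg2 were called lower, each call kept in 3 of the 8 fits that left out 1 library. The 6 had a median log2 fold change of -0.01, and 0 were called higher. Their share called lower was not tested against the 4.15% of all genes. A smaller number of cells of a type and less RNA per cell cannot be told apart in such bulk samples.

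**Figure D4:**
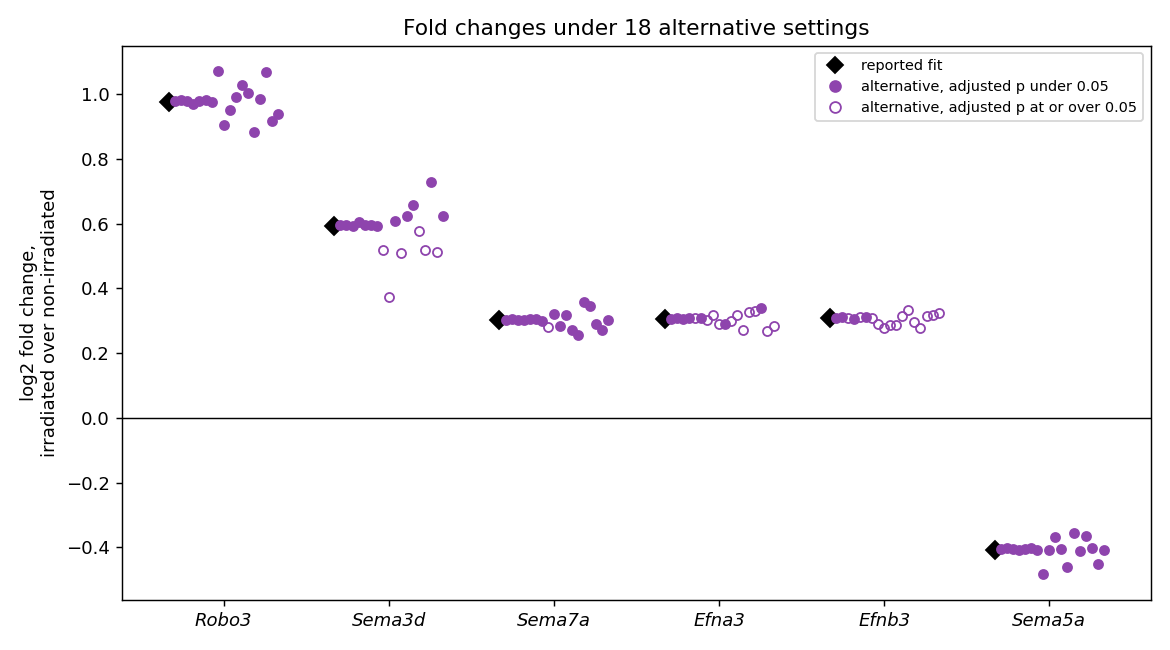
Log2 fold change (y axis) of the 6 called members other than Slit1 under the reported fit (black diamond) and 18 alternatives (circles, filled at an adjusted p under 0.05). Robo3 and Sema5a are filled throughout, Sema7a has 1 open circle, Sema3d 6, Efna3 11 and Efnb3 14, and no gene crosses 0.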

How the data were processed

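The authors deposited 1 file of raw read counts per Ensembl gene for each library, with no normalization. The submitters' processing notes name STAR 2.5.2a, featureCounts 1.5.0-p1, bcl2fastq 2.20.0.422 and the mm10 build. Which annotation release and strand setting were used, and how multi-mapping reads were counted, is not given in the sources used here, so overlapping and near-identical genes are uncertain.

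Symbols, coordinates and exon lengths came from GENCODE M21, which held 55480 of the 55573 identifiers. Exons of 18 members overlap another gene. Counts were tested with edgeR 4.0.16 (R 4.3.3): TMM factors, filterByExpr (minimum count 10, minimum total 15, 15259 genes kept), quasi-likelihood test with group as the sole term over all 8 libraries, and Benjamini-Hochberg adjustment over all genes tested. Each SE is the log2 fold change divided by the root of its F statistic. CPM per kb divides CPM by the union of exons. The code was tested on simulated data. Alternatives used limma 3.58.1 (voom), DESeq2 1.42.0, other factors, filters and samples, and loess trends on GC content and length (span 0.5, 15249 genes).

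Members, gene lists and tests were chosen with earlier results of these data known. Text names every called member, all Slits, Robos and neuropilins, Dcc, Neo1, the 2 highest members per family and kb, and members with adjusted p from 0.05 to 0.10. From each pathway list it names the called genes with the 3 smallest adjusted p. Others were named after their values were seen. Promoter windows came from RefSeq (GRCm38.p6) for 60 of 70 members.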

Additional observations from a re-analysis of the deposited data

Results flagged for a closer look

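In 4 of the 60 sets of 4 libraries examined for named members, 1 library stood far from the other 3, where chance gives about 1 in 20. Ephb4 was lowest in non-irradiated IV at 142.1 CPM, with the other 3 non-irradiated libraries at 154.1 to 154.8 CPM. Ntn1 was highest in irradiated IV at 13.05 CPM, against 11.89 to 12.02 CPM in the other irradiated libraries, and lowest in non-irradiated IV at 10.43 CPM, against 11.32 to 11.48 CPM in the other non-irradiated ones. Dcc had 0 CPM in irradiated II and 0.0275 to 0.033 CPM in the other 3, a matter of 1 count each.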

How the results depend on the processing

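The number of members called higher, 6 as reported, was 2 without both irradiated I and II, 3 without both non-irradiated I and III, 2 at an adjusted p under 0.01 and 3 to 6 when 1 library was left out (3 without irradiated I, irradiated IV, non-irradiated I or non-irradiated III). The member called lower stayed at 1 in every alternative run. Over all genes, 395 higher became 648 without a low-count filter, 140 at the stricter threshold and 221 to 402 with 1 library left out, with 221 without irradiated IV, 234 without irradiated III and 257 without non-irradiated I. The 634 lower became 295 without both irradiated I and II, 296 at the stricter threshold and 415 (without irradiated IV) to 611 with 1 library left out. The cause of these moves was not tested. No named gene changed sign with a call, and no scaling moved the median of all genes by more than 0.1 on the log2 scale. Whether the replicate numerals pair the libraries is not settled. Same-numbered deviations correlated at 0.0248, -0.0332, 0.275 and 0.147 for I to IV. The 0.275 for III was the highest of all correlations between irradiated and non-irradiated libraries, but not every library correlated best with its own number. With the numeral as a replicate block, 4 members were higher and 1 lower, and adjusted p was 0.0605 for Efna3 and 0.0599 for Efnb3. Over all genes the block gave 550 higher and 802 lower, against 395 and 634 as reported. Dividing by the longest transcript in place of the exon union left 43 members above 1 CPM per kb, against 38. Genes under about 1 CPM are limited by their counts.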

Other observations

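Some members are neighbours in the genome. Robo4 (plus strand) and Robo3 (minus strand) end toward each other on chromosome 9 with 553 bp between them. Both had all irradiated libraries above the non-irradiated ones, although Robo4 had 69 counts in all, against 649 for Robo3. The strand setting is not stated, and whether reads of 1 gene were counted for the other was not tested. Robo1 and Robo2, 846 kb apart on chromosome 16 with 0 protein-coding genes between them, had log2 fold changes of -0.05 and -0.29, and neither was called. Efna3 lies on chromosome 3 between Efna1 (32.8 kb away) and Efna4 (10.4 kb away), whose log2 fold changes were 0.02 and 0.03. Sema3d and Sema3a, 536 kb apart on chromosome 5, had log2 fold changes of 0.59 and -0.03. The differences between neighbours were not tested.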
